A study of Mus musculus with 3 samples.

Results

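The genes described here are 10 regulators of the step from G1 into S phase of the cell cycle: the CDK inhibitor genes *Cdkn2a*, *Cdkn2b*, *Cdkn2c*, *Cdkn1b* and *Cdkn1c*, the D-type cyclin genes *Ccnd1*, *Ccnd2* and *Ccnd3*, the kinase gene *Cdk6* and the retinoblastoma gene *Rb1*. Every array probe whose RefSeq accession belongs to one of these symbols was taken, whatever its signal, which gave 16 probes for 10 genes, out of 32994 probes of 22911 genes that carried a name. Colon26 is a murine colon adenocarcinoma line, LuM1 is its high-metastatic subline and NM11 its low-metastatic subline. All of them were labelled as female and of BALB/c strain, were grown in the same serum-containing medium without any other treatment, and gave total RNA after 3 days of culture. The purpose given for the arrays was to compare the transcriptome of LuM1 cells with those of NM11 and parental Colon26 cells. There was 1 single-colour array per cell line, so differences have no replicate check, no test could be run, and each line is known here from 1 RNA sample.

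In a cell that has been told to divide, D-type cyclins accumulate and pair with CDK4 or CDK6, and these kinases phosphorylate the retinoblastoma protein, which then lets go of the E2F transcription factors that switch on the genes of DNA replication. Inhibitors of the INK4 family (p16 and p15, from *Cdkn2a* and *Cdkn2b*, and p18, from *Cdkn2c*) bind CDK4 and CDK6 and keep the cyclin out. Those of the CIP/KIP family (p27 and p57, from *Cdkn1b* and *Cdkn1c*) bind whole cyclin-CDK complexes, and loss of INK4 genes or gain of D cyclins is frequent in tumours and cell lines.

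The signal is the spot brightness after subtraction of the background, scaled so that the 75th percentile of each array became 585.1 (581.1, 625.1 and 551.5 before scaling on the Colon26, LuM1 and NM11 arrays). The scanner software called 49.9% to 53.8% of 56605 probes well above background and no probe saturated. The error given after ± is that of the scanner software, about 10.0% of the signal plus a constant, and describes technical error only. A probe that is not well above background has only a bound, set at the dimmest signal that still passed as well above background on the same array (26.4 for Colon26, 20.1 for LuM1, 19.6 for NM11) or at the probe's own signal where that was brighter. Where a gene had several probes, the one with the highest mean log2 signal stood for the gene, and levels are compared only between cell lines, never between probes. Of 11 colon epithelial markers, 4 were well above background in Colon26, 5 in LuM1 and 4 in NM11 cells. These were *Krt8*, *Krt20*, *Cdx2* and *Lgals4* in all lines, with *Epcam* in LuM1 cells alone. *Cdh1*, *Cdh17*, *Cdx1*, *Krt18*, *Krt19* and *Vil1* were not in any line, so the epithelial label is borne out only in part. The summed signal of those well above background was 1321, 493 and 429.9 in Colon26, LuM1 and NM11 cells. *Krt20* read 651, 54.5 and 157 in that order, and *Cdx2* and *Lgals4* were also highest in Colon26 cells. *Krt8* was highest in LuM1 cells, at 28.9, 108 and 37.1. Of 8 fibroblast markers, 5, 7 and 7 were well above background, with summed signals of 66319, 55460 and 121223, but single markers differed in opposite directions. *Col1a2* read 59896, 49.6 and 85275, and *Pdgfra* 218 in Colon26 and 3965 in LuM1 cells, while *Dcn* and *Thy1*, named after their values were seen, read 27503 and 19560 in LuM1 cells and had only bounds in Colon26 cells. Of 7 macrophage markers 3, 4 and 3 were well above background, with summed signals of 5881, 12871 and 5225. *Cd68* read 172 in Colon26, 5251 in LuM1 and 299 in NM11 cells. *Lyz2*, named after its values were seen, read 112 in LuM1 cells and had only bounds in the other lines. *Itgam* read 5027, 6818 and 4251 and *Csf1r* 682, 691 and 675, in the order Colon26, LuM1, NM11. The defining *Ptprc*, *Adgre1* and *Tyrobp* did not reach that level in Colon26, LuM1 or NM11 cells. Only *Pecam1* among 6 endothelial markers was well above background. These levels differ between the same arrays as the cell cycle genes, and their part in the results was not tested.

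*Cdkn2a* and *Cdkn2b* lie side by side on mouse chromosome 4. The 250 bases before their annotated starts are shown because the signal of both genes was at or near the detection limit, and because the starts differ in sequence composition. The sequences are RefSeq's for the assembly GRCm38.p6, are read 5′ to 3′ on the minus strand that carries the genes, and come from chr4:89294620-89294869 for the *Cdkn2a* start farther upstream (the start of the Arf transcript), chr4:89282193-89282442 for the *Cdkn2a* start farther downstream (the start of the p16 transcript) and chr4:89311033-89311282 for *Cdkn2b*. Capitals mark the GC box GGGCGG, searched on both strands as GGGCGG or CCGCCC, a motif that Sp1 family factors can bind.
Cdkn2a, upstream start: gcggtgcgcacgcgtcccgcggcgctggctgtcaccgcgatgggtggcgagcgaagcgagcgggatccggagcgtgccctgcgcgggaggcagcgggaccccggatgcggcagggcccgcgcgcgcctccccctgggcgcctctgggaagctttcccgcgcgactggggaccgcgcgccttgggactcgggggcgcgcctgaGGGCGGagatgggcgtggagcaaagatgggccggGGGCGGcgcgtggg
Cdkn2a, downstream start: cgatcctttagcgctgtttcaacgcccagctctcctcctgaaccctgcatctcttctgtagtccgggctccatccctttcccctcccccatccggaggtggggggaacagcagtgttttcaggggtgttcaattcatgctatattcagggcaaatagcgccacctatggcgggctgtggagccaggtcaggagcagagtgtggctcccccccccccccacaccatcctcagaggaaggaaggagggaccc
Cdkn2b: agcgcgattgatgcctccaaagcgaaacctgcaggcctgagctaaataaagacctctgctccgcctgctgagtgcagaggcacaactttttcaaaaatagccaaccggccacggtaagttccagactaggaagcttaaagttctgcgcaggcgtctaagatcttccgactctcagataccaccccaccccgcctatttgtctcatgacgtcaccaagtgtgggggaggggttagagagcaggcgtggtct

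The upstream *Cdkn2a* start held 40 CG dinucleotides and 78.4% G or C, and its number of CG dinucleotides was at the 98.7th percentile of 32851 mouse promoters of the same length, whose median was 6. The downstream start held 7 and 60.0%, at the 53.7th percentile, and the *Cdkn2b* start held 12 and 53.6%, at the 66.5th percentile. The GC box was found 2 times before the upstream *Cdkn2a* start and not before the other starts, and 32.7% of all promoters held it. The letters TTTCGCGC or GCGCGAAA, one form of an E2F site, were in none of the 3 windows and in 0.256% of all promoters. The sequence table held promoters for 6 of the 10 genes. The arrays read RNA and no promoter, so these are descriptions of the reference sequence and not of the cell lines, whose genomes were not measured.

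*Cdkn2a*, which encodes p16 and, from another reading frame, the p53-stabilising protein Arf, gave no signal that was called above background in any line. The probe A_55_P2008437 read 5.69 in Colon26, 4.34 in LuM1 and 4.12 in NM11 cells. The probe A_51_P144813 read 5.34, 4.06 and 3.90. Neither was called significantly above background on any array, and the scanner software then writes the error of the spot in place of a signal, so the order of these values has no meaning and no ratio can be given. Both probes carry the accession NM_009877, and which exons they cover, and so whether they read the p16 transcript, the Arf transcript or both, was not analysed here. Among all named genes, 8064 (35.2%) were likewise without a detected probe.

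*Cdkn2b*, which encodes p15 and is induced by TGF-β in many epithelial cells, was read by 2 probes that disagreed. The probe A_52_P498241, which stood for the gene, read 5.69 in Colon26, 94.8 ± 10.4 in LuM1 and 4.10 in NM11 cells, and only the LuM1 value was well above background. Against Colon26 cells this bounds the ratio at 3.59-fold or more, and against NM11 cells the LuM1 signal was at least 4.84-fold higher. With total RNA of a culture, fewer expressing cells and less RNA per cell cannot be told apart. The other probe, A_55_P1988183, read 48.0 ± 7.74 in Colon26, 4.37 in LuM1 and 4.11 in NM11 cells, and only the Colon26 value was well above background. By that probe Colon26 cells were at least 2.38-fold above LuM1 cells and at least 2.45-fold above NM11 cells. Each line that was high by one probe was therefore not well above background by the other, and NM11 cells were not well above background by either. Averaged over probes, *Cdkn2b* was no longer higher in LuM1 than in Colon26 cells by 2-fold, and it was lower in NM11 than in Colon26 cells.

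The spots of the *Cdkn2b* probes differed in what lay around them. On the Colon26 array, 20 of the 88 spots (22.7%) within 6 rows and 3 columns of A_55_P1988183 belonged to probes that were well above background on that array alone, against 1.98% of all probes. On the LuM1 array, 6 of the 84 spots (7.14%) around A_52_P498241 belonged to probes well above background on the LuM1 array alone, against 3.62% of all probes. Of the 16 probes, the Colon26 spot of A_55_P1988183 was the one with more than 10% of such neighbours on the array where it was well above background, and leaving out such spots, an alternative chosen after the values were seen, left its Colon26 signal out. Clustered spots were not confined to the Colon26 array, with 2678 on the Colon26, 3091 on the LuM1 and 1023 on the NM11 array.

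**Figure D1:**
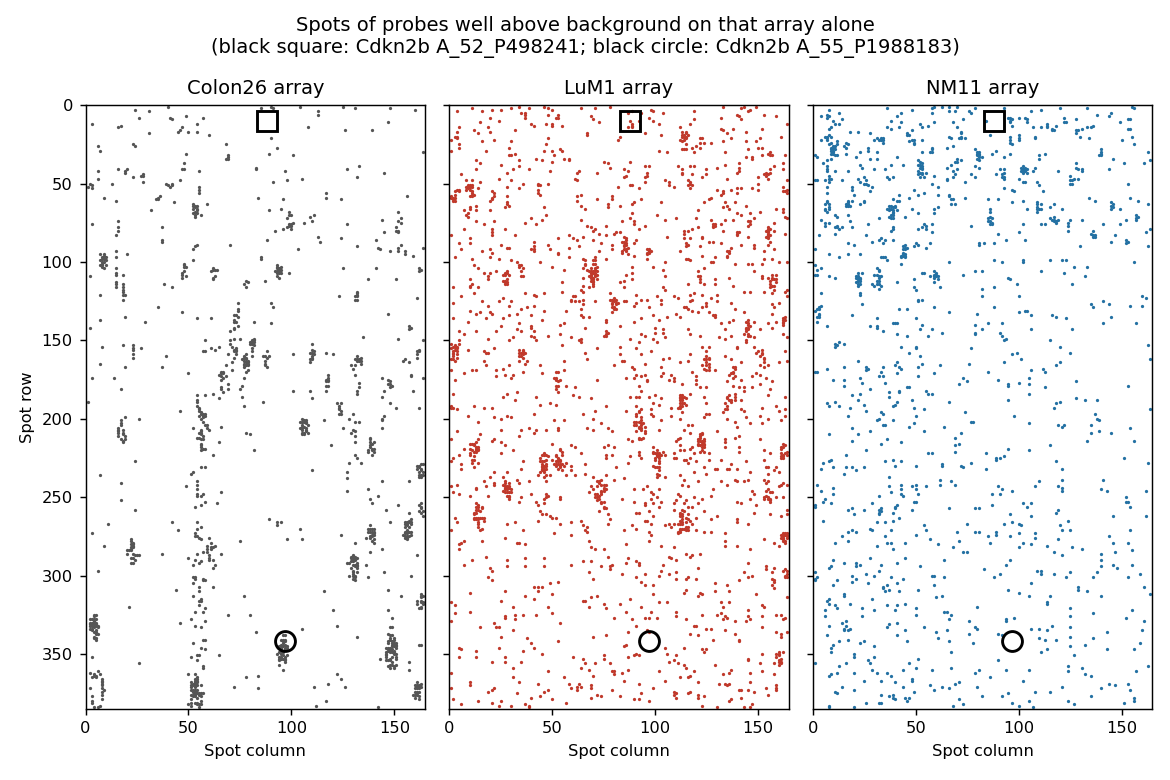
Position on each array (spot column against spot row) of every probe that was well above background on that array and on no other. The black square marks the spot of *Cdkn2b* probe A_52_P498241 and the black circle that of A_55_P1988183, which on the Colon26 array sits inside a dense patch of such spots (20 of 88 neighbours).

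*Cdkn2c*, the INK4 gene for p18, was far from background in all lines. Its probe (A_51_P513719, RefSeq NM_007671) read 1719 ± 172 in Colon26, 2411 ± 241 in LuM1 and 1882 ± 188 in NM11 cells. LuM1 cells had the highest signal, and NM11 and Colon26 cells differed by less than the scanner error. The log2 ratio of LuM1 over Colon26 was 0.49 with an error of 0.20, that of LuM1 over NM11 was 0.36 and that of NM11 over Colon26 was 0.13. Among the genes measured on both arrays, these ratios were at the 80.2nd, 75.6th and 62.9th percentiles, so the difference was well within the range of most genes. The direction of LuM1 over both other lines held under all 7 other scalings and corrections, whereas NM11 over Colon26 turned to -0.36 when the arrays were scaled to *Hprt* and was also below 0 when they were scaled to spike-in controls.

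*Cdkn1b* encodes p27, which holds cyclin E-CDK2 inactive in resting cells. Its probe (A_55_P2026562, NM_009875) read 1630 ± 163 in Colon26, 2100.4 ± 210 in LuM1 and 1346 ± 135 in NM11 cells. The order was LuM1, Colon26, NM11, and each neighbouring step exceeded its scanner error, with log2 ratios of 0.37 for LuM1 over Colon26 and -0.28 for NM11 over Colon26. Between the ends of this order the log2 ratio of LuM1 over NM11 was 0.64, at the 85.5th percentile of 12851 genes, and it ranged from 0.56 after normexp background correction to 1.23 when scaled to *Hprt*. The order itself was kept under all 7 alternatives.

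*Cdkn1c*, the imprinted gene for p57, was not well above background in any line. Its probe (A_55_P2733752, NM_001161624) read 9.87 ± 5.57 in Colon26, 4.23 in LuM1 and 12.0 ± 4.20 in NM11 cells. The Colon26 and NM11 spots were called significantly above background by the looser criterion of the scanner software and the LuM1 spot was not. All values were under the lowest signal of a probe well above background, so no ratio is given.

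Of the D-type cyclins, which couple growth signals to the cell cycle, *Ccnd1* and *Ccnd2* were both lowest in LuM1 cells and *Ccnd3* was lowest in NM11 cells. *Ccnd1*, the cyclin D1 gene and a target of Wnt and growth factor signalling, was read by A_66_P111562 (NM_007631) at 24916 ± 2492 in Colon26, 13062 ± 1306 in LuM1 and 23035 ± 2303 in NM11 cells. The signal in LuM1 cells was 1.91-fold lower than in Colon26 cells and 1.76-fold lower than in NM11 cells, while Colon26 and NM11 cells differed by less than the scanner error (log2 ratio -0.11). The log2 ratios of -0.93 and -0.82 were both at the 11.2th percentile of the genes measured on each pair of arrays. They stayed below 0 under every alternative, with the weakest values of -0.49 in the authors' processed table for LuM1 over Colon26 and -0.23 for LuM1 over NM11 when scaled to *Hprt*.

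*Ccnd2*, the cyclin D2 gene, was read by 3 probes, all of them lowest in LuM1 cells. The probe A_55_P2917114 (NM_009829) read 23044 ± 2304 in Colon26, 9281 ± 928 in LuM1 and 23415 ± 2341 in NM11 cells. The probe A_52_P53906 read 5728, 2013 and 5305, and the probe A_65_P18532 (XM_006505459) read 9410, 3476 and 9477. In each case the values in Colon26 and NM11 cells were within the scanner error of each other and the LuM1 value stood apart. The signal in LuM1 cells was 2.48-fold, 2.85-fold and 2.71-fold lower than in Colon26 cells by these probes, and 2.52-fold, 2.64-fold and 2.73-fold lower than in NM11 cells. The probes differed among themselves by 0.20 (log2) at most in LuM1 over Colon26 and by 0.11 in LuM1 over NM11, within or below one scanner error of 0.20. For the probe that stood for the gene, the log2 ratios of -1.31 and -1.34 were at the 5.19th and 3.55th percentiles of all measured genes. Both stayed below 0 under all alternatives but passed 2-fold only in part, with -0.87 over Colon26 in the authors' processed values and -0.75 over NM11 when scaled to *Hprt*.

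*Ccnd3*, the cyclin D3 gene, had another order. The probe A_55_P2918958 (NM_001081636) read 9193 ± 919 in Colon26, 7480 ± 748 in LuM1 and 5180 ± 518 in NM11 cells, and the probe A_55_P2041075 read 8979, 7006 and 5002. By both probes NM11 cells were lowest and Colon26 cells highest. NM11 cells were 1.77-fold lower than Colon26 cells by the first probe (log2 ratio -0.83, at the 8.09th percentile of 12471 genes) and had a log2 ratio of -0.84 by the second. LuM1 cells were 1.44-fold higher than NM11 cells by the first probe, and the log2 ratio of LuM1 over Colon26 was -0.30, which turned to 0.15 in the authors' processed values. The ratio of NM11 over Colon26 stayed below 0 under every alternative, from -1.32 when scaled to *Hprt* to -0.75 after normexp correction.

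The difference between the ratios of 2 genes is not moved by any factor that multiplies a whole array. The ratio of *Ccnd2* was below that of *Ccnd3* by 1.01 (log2, scanner error 0.29) in LuM1 over Colon26 and by 1.87 in LuM1 over NM11, and above it by 0.85 in NM11 over Colon26. The ratio of *Ccnd1* was likewise below that of *Ccnd3* by 0.63 and by 1.35 in the comparisons with LuM1. *Ccnd1* and *Ccnd2* lay closer together, 0.38 apart in LuM1 over Colon26, 0.52 in LuM1 over NM11 and 0.14 in NM11 over Colon26. The comparisons share arrays, so a low value on the LuM1 array enters both comparisons with LuM1.

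**Figure D2:**
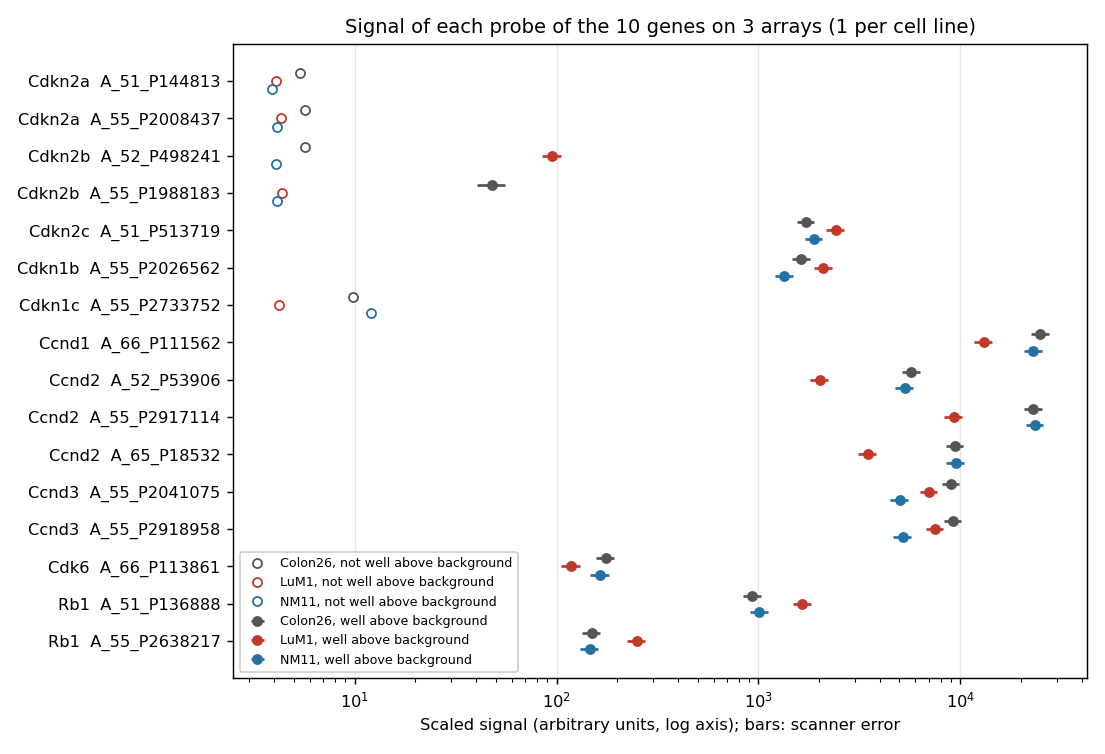
Scaled signal (arbitrary units, log axis) of each of the 16 probes in Colon26, LuM1 and NM11 cells, with the scanner error as a bar. Filled circles are well above background and open circles are not, so the *Cdkn2a* and *Cdkn1c* probes are open throughout, and the LuM1 points of the *Ccnd1* and *Ccnd2* probes lie left of the others.

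*Cdk6*, the catalytic partner of the D cyclins besides CDK4, had a modest signal. Its probe (A_66_P113861, NM_009873) read 175 ± 18.6 in Colon26, 118 ± 12.8 in LuM1 and 164 ± 17.1 in NM11 cells. LuM1 cells were again lowest, 1.49-fold below Colon26 cells (log2 ratio -0.57 with an error of 0.22) and 1.40-fold below NM11 cells (-0.48). Colon26 and NM11 cells differed by less than the scanner error. Scaled to *Hprt*, LuM1 over NM11 turned to 0.11, so the direction of that ratio depended on the scaling.

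*Rb1*, which encodes the retinoblastoma protein, was highest in LuM1 cells by both of its probes. The probe A_51_P136888 (NM_009029) read 934 ± 93.6 in Colon26, 1649 ± 165 in LuM1 and 1010 ± 101 in NM11 cells. The probe A_55_P2638217 read 149 in Colon26, 249.9 in LuM1 and 146 in NM11 cells. LuM1 cells were 1.76-fold and 1.68-fold higher than Colon26 cells by these probes and 1.63-fold and 1.71-fold higher than NM11 cells, and the other lines did not differ beyond the scanner error. The log2 ratios of 0.82 and 0.71 of the first probe were at the 87.9th and 87.1th percentiles and stayed above 0 under all alternatives, reaching 1.27 over Colon26 in the authors' processed values and 1.30 over NM11 when scaled to *Hprt*. Set against *Ccnd2*, which is independent of the scaling by one factor per array, the ratio of *Rb1* was higher by 2.13 (scanner error 0.29) in LuM1 over Colon26, a factor of 4.38, and set against *Ccnd1* it was higher by 1.75. *Cdkn2c* was 1.80 above *Ccnd2* in the same comparison.

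**Figure D3:**
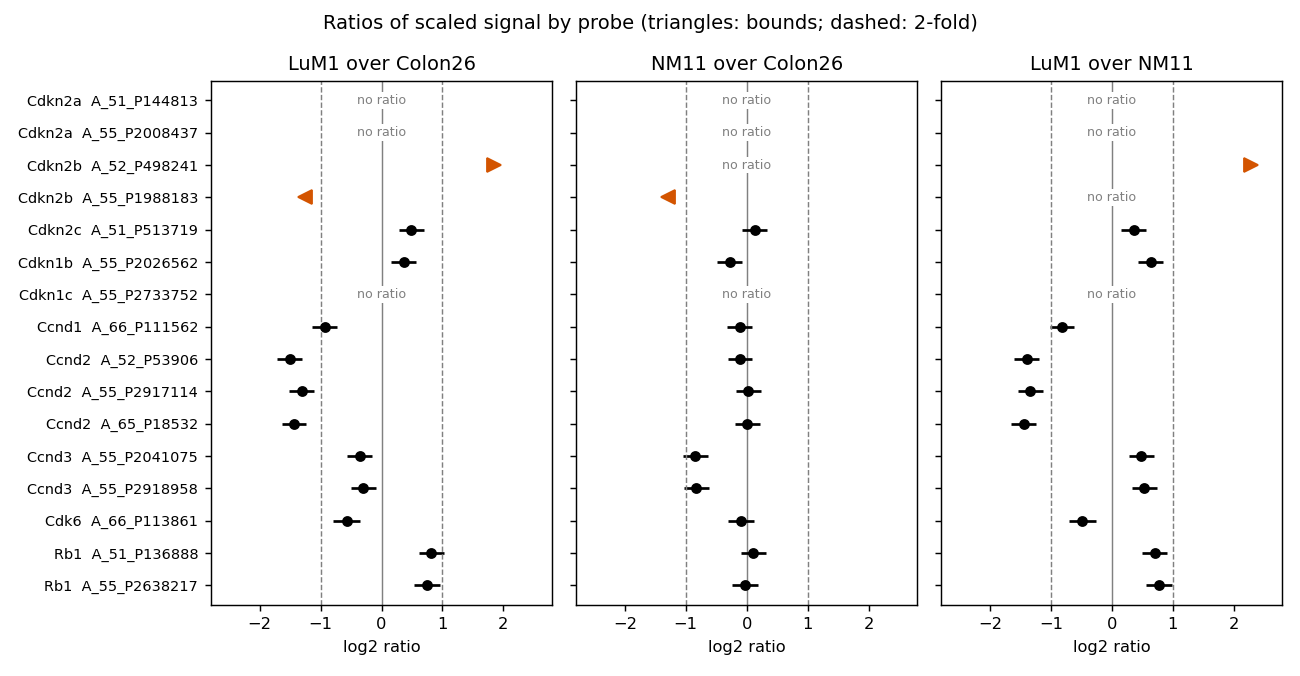
Log2 ratio of the scaled signal for each probe in the 3 comparisons, with the scanner error as a bar, triangles for bounds that point away from the dimmer line, and dashed lines at 2-fold. Probes of 1 gene lie within the bars of one another except those of *Cdkn2b*, which point in opposite directions in LuM1 over Colon26.

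Counted at 2-fold with bounds included, 8 of the 10 genes could be compared between LuM1 and Colon26 cells. Of these, 1 was higher (*Cdkn2b*), 1 was lower (*Ccnd2*) and 6 lay between, where 12.9% of 14353 named genes were higher and 11.7% lower. In NM11 against Colon26 cells, 0 of 7 genes were past 2-fold in either direction, where 8.17% of 14109 genes were higher and 7.74% lower. In LuM1 against NM11 cells, *Cdkn2b* was again higher and *Ccnd2* lower among 8 genes, where 11.1% of 14415 genes were higher and 8.5% lower. *Cdkn2b* was counted by A_52_P498241, which stood for the gene through the same LuM1 signal that was then counted, so its calls are no independent support. By its other probe LuM1 cells were at least 2.38-fold and NM11 cells at least 2.45-fold lower than Colon26 cells. That probe gave no ratio for LuM1 over NM11. These shares of the 10 genes are near the background shares and single out no direction. Over the 7 genes measured on all 3 arrays, the median log2 ratio was -0.30 against -0.13 for all measured genes in LuM1 over Colon26, -0.09 against -0.02 in NM11 over Colon26, and 0.36 against -0.11 in LuM1 over NM11. Among all named genes, 53.5% had a representative probe that passed this criterion on every array.

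A scaling by one factor per array shifted all ratios of a comparison together and with them these counts. Relative to the 75th percentile, the median ratio (log2) for LuM1 over Colon26 moved by 0.45 in the authors' processed values, that of NM11 over Colon26 by -0.49 when scaled to *Hprt* and by -0.32 when scaled to spike-in controls, and that of LuM1 over NM11 by 0.59, 0.41 and 0.32 under *Hprt*, the authors' values and the spike-in controls. Over all genes, 1856 were higher and 1679 lower in LuM1 than in Colon26 cells, against 3038 and 874 in the authors' values. For NM11 over Colon26 the split was 1153 to 1092, against 686 to 2727 with *Hprt* and 808 to 1941 with the spike-in controls. Normexp correction, which is no such factor, gave 864 to 601 with a median moved by only 0.028. For LuM1 over NM11 it was 1599 to 1225, against 1980 to 906 without scaling, 3581 to 498 with *Hprt*, 2378 to 706 with the spike-in controls and 2747 to 629 in the authors' values. The order of the 7 measured genes in LuM1 over Colon26, from *Rb1* and *Cdkn2c* at the top to *Ccnd1* and *Ccnd2* at the bottom, is the same under every such factor.

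**Figure D4:**
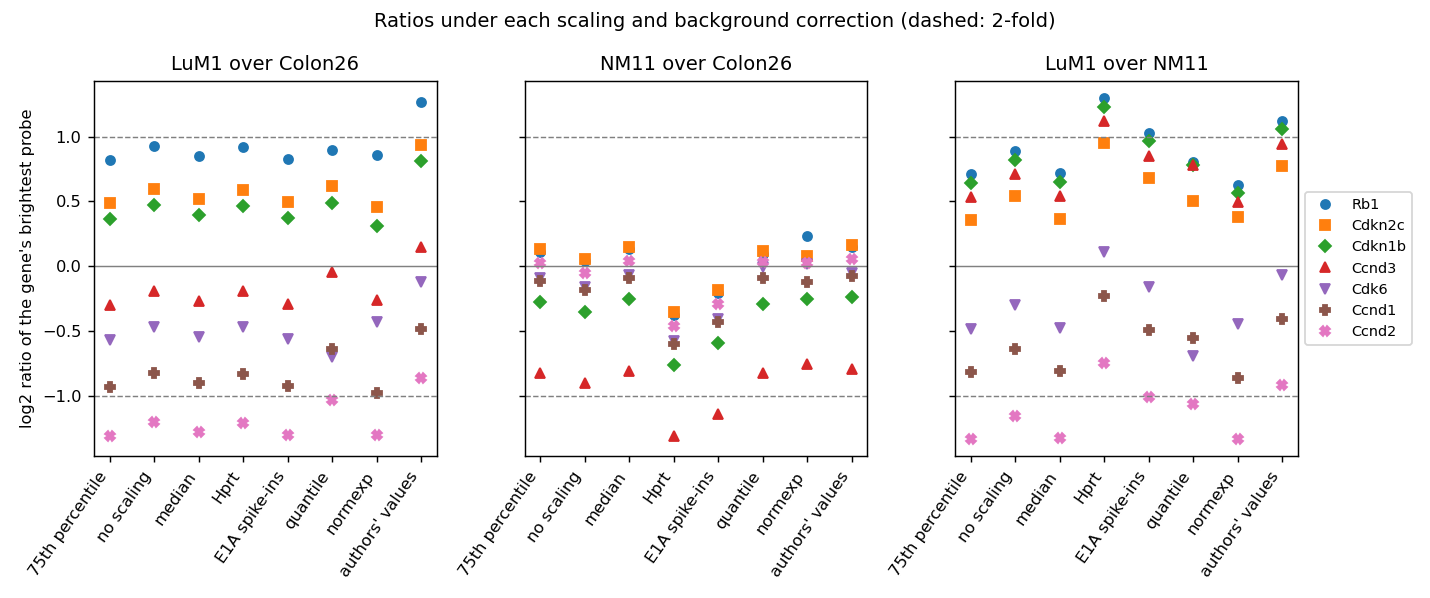
Log2 ratio of the 7 genes measured on all 3 arrays under the scaling used here (75th percentile) and 7 alternatives, in each comparison, with dashed lines at 2-fold. The points of one column move up or down together under the scalings by one factor per array, for example by 0.59 for LuM1 over NM11 with *Hprt*, while *Ccnd2* stays lowest in both comparisons with LuM1.

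Of the other genes of the G1 machinery, 5 of 18 had log2 ratios above 0 in LuM1 over Colon26, where 41.7% of all 12397 measured genes did. In the authors' processed values 11 of 18 did, but there the median of all measured genes also rose, from -0.13 to 0.32. Of 19 other G1 genes listed, 18 were measured on all pairs of arrays, and the exception was *Ccne2* (cyclin E2), which was not well above background. Between LuM1 and Colon26 cells 0 of the 18 were higher by 2-fold and 3 were lower, where 9.73% of the 12397 genes measured on both arrays were higher and 9.72% lower, and the median log2 ratio was -0.34. *Ccne1*, which encodes cyclin E1 and acts with CDK2 after the D cyclins, read 4580 in Colon26, 1856 in LuM1 and 2892 in NM11 cells, a log2 ratio of -1.30 in LuM1 over Colon26. *Cdc25a*, the phosphatase that activates CDK2, had a ratio of -1.27 and *E2f4*, a repressive E2F, one of -1.26. The highest ratios were 0.36 for *E2f2* and 0.23 for *Cdkn2d*, the INK4 gene for p19. In the authors' processed values the median of the list turned to 0.10.

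In NM11 over Colon26, 0 of these 18 genes were higher by 2-fold and 2 were lower, where 6.28% of measured genes were higher and 5.47% lower. These were *Tfdp2*, a partner of E2F proteins, with 1276 in Colon26, 1280 in LuM1 and 543 in NM11 cells (log2 ratio -1.23), and *Rbl2*, which encodes the retinoblastoma relative p130, with 204 in Colon26 and 91.5 in NM11 cells (-1.16). In LuM1 over NM11, which shares the NM11 array, the same 2 genes were past 2-fold upward (1.24 and 1.13) and 0 downward, where 8.4% of measured genes were higher and 7.21% lower. At the other end of LuM1 over NM11 were *Tfdp1* (-0.95), *Cdk2* (-0.85) and *Cdk4* (-0.82), the last of which encodes the other kinase of the D cyclins and read 32195 in Colon26, 24303 in LuM1 and 42969 in NM11 cells. The median was -0.61 in this comparison and -0.02 when scaled to *Hprt*, and in both settings it lay 0.50 below that of all measured genes. *Cdkn1a*, the p53 target gene for p21, named here after its values were seen, read 5435, 4204 and 3814 with log2 ratios of -0.37 in LuM1 over Colon26 and 0.14 in LuM1 over NM11.

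Genes downstream of E2F, which encode replication and mitotic proteins, lay lower in LuM1 than in the other lines relative to all genes. In LuM1 over Colon26, 2 of 18 had log2 ratios above 0, where 41.7% of all measured genes did, and the median was -0.58, 0.45 below that of all measured genes. *Ccna2*, the cyclin A2 gene, read 11507 in Colon26, 5511 in LuM1 and 13606 in NM11 cells and was the one of the 18 below Colon26 by 2-fold in LuM1 cells (log2 ratio -1.06). The replication licensing genes *Mcm5* and *Cdt1* both had a ratio of -0.93, and *Mki67*, the gene of the proliferation marker Ki-67, had 0.15. In LuM1 over NM11, 1 of 18 was above 0, where 43.0% of all measured genes were, with a median of -0.66. In this comparison 5 of the 18 were at least 2-fold lower, where 7.21% of all measured genes were, but 3 were without scaling or after quantile normalization, and 0 were when scaled to *Hprt* or to spike-in controls or in the authors' values. The 5 included *Ccna2* (-1.30), *Cdc6* (-1.19), *Tk1* (-1.18) and *Cdk1* (-1.15). In NM11 over Colon26, 13 of 18 were above 0 and none was past 2-fold, with a median of 0.13. It turned to -0.35 when scaled to *Hprt* and to -0.18 when scaled to spike-in controls, where the medians of all measured genes were -0.51 and -0.34. In each of these settings, as in the main one, it lay 0.16 above that of all measured genes. The counts above 0 depended on the scaling, with 7 of 18 in LuM1 over Colon26 in the authors' processed values and 8 of 18 in LuM1 over NM11 when scaled to *Hprt*. In both comparisons with LuM1, however, the median lay below that of all genes under each of the 7 other scalings and corrections. The smallest gaps were 0.29 in LuM1 over Colon26 and 0.36 in LuM1 over NM11, both after quantile normalization.

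Among 12 genes that act in the turnover of G1 cyclins and inhibitors, the ratios showed no common direction. In LuM1 over Colon26 the median log2 ratio was -0.01, with 6 genes above and 6 below 0. *Fbxo31*, the gene of an F-box protein that can target cyclin D1, read 2054 in Colon26, 4242 in LuM1 and 1888 in NM11 cells, a log2 ratio of 1.05 over Colon26 and 1.17 over NM11. *Cryab*, the gene of the chaperone αB-crystallin, which can act with an F-box protein on cyclin D1, read 4540 in Colon26, 279 in LuM1 and 457 in NM11 cells, a log2 ratio of -4.02 for LuM1 and -3.31 for NM11 over Colon26. No other gene of the list was past 2-fold in any comparison.

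**Figure D5:**
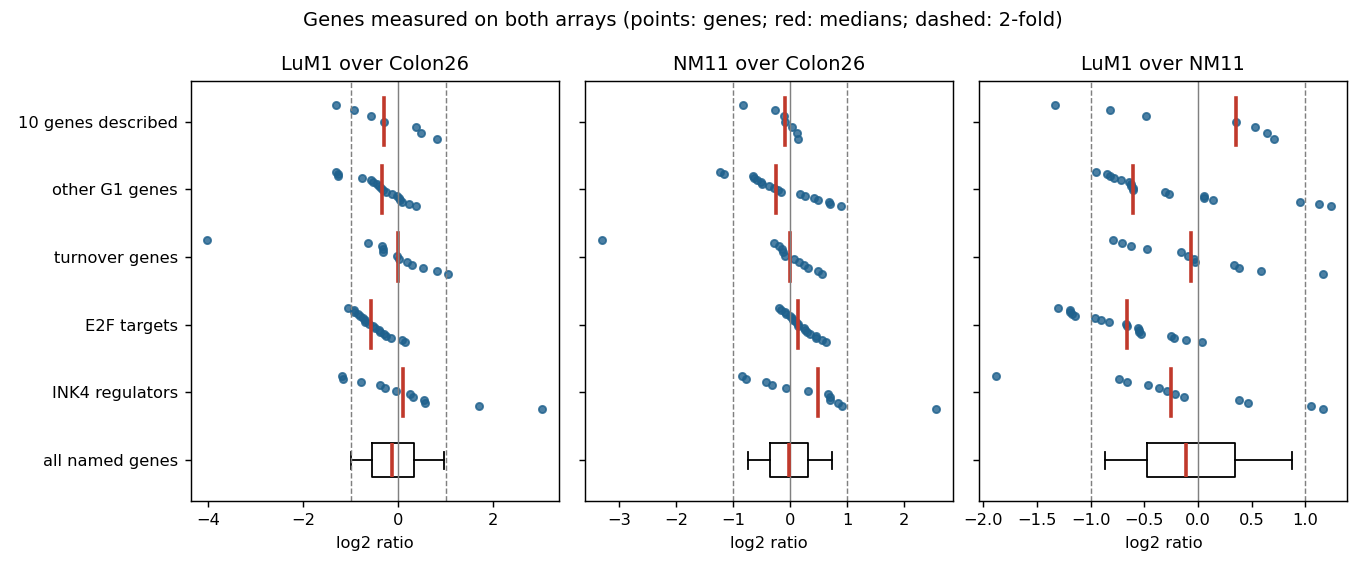
Log2 ratios of the genes measured on both arrays of each comparison, with 1 point per gene, a red bar at each median and dashed lines at 2-fold. The box gives the quartiles of all named genes and its whiskers their 10th and 90th percentiles. The E2F targets lie left of the median of all genes in both comparisons with LuM1 (medians -0.58 and -0.66), and the 7 measured genes of the 10 described spread on both sides.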

How the data were processed

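As the authors describe, Cy3-labelled cRNA from 0.1 µg of total RNA was hybridized to mouse expression arrays, 1 per cell line. Per the file headers, spot intensity was extracted with Agilent Feature Extraction 11.5.1.1, with background subtraction and detrending inside an array and nothing between arrays. The authors deposited this output together with flags of 0 or 1 for outliers, saturation and detection. A further table that the authors deposited holds the same intensity multiplied by a constant for each array (Colon26 0.654, LuM1 0.829, NM11 0.706), for which the sources used here give no rule.

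Control spots and outlier spots (137, 74 and 99) were left out, repeated spots were averaged (median SD of repeats 0.035, 0.040 and 0.037, log2), and signals were divided by the 75th percentile of their array and brought to a common level. Probes were named through RefSeq accessions of GRCm38.p6 (58.3% of probes). The array was designed on an older assembly, so the gene table was used for names and neighbours only. A gene counted as higher or lower at 2-fold, bounds included. The 10 genes, the gene lists and the marker lists were chosen with earlier results of these data known. All probes of the 10 genes were shown. From each list the 3 genes with the largest ratios in each direction could be named, as could the 3 genes on each side of a member. The values of 1 listed gene are not reported here.

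Alternatives were scaling to *Hprt*, to 7 spike-in control probes or to the median of measured probes, unscaled signals, quantile normalization, normexp correction (offset 50, run on the median brightness because that is the column in the files), a looser detection rule, dim signals at face value, the authors' processed values, other choices of probe and a 4-fold threshold. Leaving out clustered spots was added after seeing the data. Python 3.11.15 with numpy 2.4.6, pandas 2.3.3 and matplotlib 3.10.9, and R 4.3.3 with limma 3.58.1 for normexp, were used, and the scripts were tested on simulated data. The number of arrays limits the precision. No test was run, since probes on 1 array are not replicates, and the study's other experiments were not used here.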

Additional observations from a re-analysis of the deposited data

How the results depend on the processing

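No result reversed past 2-fold under any alternative run, but the *Cdkn2b* probe A_55_P1988183 taken alone was not among them. By that probe LuM1 cells were at least 2.38-fold below Colon26 cells. Of the log2 ratios of single genes, 216 moved by less than the scanner error and 60 by more. This tally includes alternatives that could not move a ratio, such as another choice of probe for a gene with 1 probe. Another detection rule likewise cannot move the ratio of a gene well above background on both arrays, so the tally does not measure stability. The counts of the 10 genes past 2-fold moved as follows. Scaled to *Hprt*, the count lower in NM11 than in Colon26 cells became 1 (*Ccnd3*), that higher in LuM1 than in NM11 cells became 4 (*Cdkn2b*, *Cdkn1b*, *Ccnd3* and *Rb1*) and that lower became 0. Scaled to the spike-in controls, the first count became 1 (*Ccnd3*) and the second 2 (*Cdkn2b* and *Rb1*). In the authors' processed values, 2 were higher (*Cdkn2b* and *Rb1*) and 0 lower in LuM1 than in Colon26 cells, and 3 higher (*Cdkn2b*, *Cdkn1b* and *Rb1*) and 0 lower than in NM11 cells. These scalings multiply every ratio of a pair of arrays by 1 factor. After normexp correction 0 were higher in LuM1 cells in either comparison, since its offset shrinks the ratios of dim probes and the *Cdkn2b* bounds became 0.94 and 0.96. With the looser detection rule, and likewise with no filter, 2 were lower in LuM1 cells in either comparison (*Cdkn1c* besides *Ccnd2*). Averaged over probes, 0 were higher in LuM1 than in Colon26 cells and 1 was lower in NM11 than in Colon26 cells (*Cdkn2b*). At 4-fold, 0 were higher or lower in LuM1 than in Colon26 cells and 0 were lower than in NM11 cells. Leaving out clustered spots, chosen after seeing the data, changed none of these counts. Among the 10 genes it took out only the Colon26 spot of A_55_P1988183, a probe that did not stand for *Cdkn2b*. These counts could therefore not show its effect. Over all genes, leaving clustered spots out gave 1563 higher and 1323 lower in LuM1 than in Colon26 cells, against 1856 and 1679. No paired analysis was possible because each cell line had 1 array, and for the same reason no replicate could be left out. Signal over background limits *Cdkn2a*, *Cdkn2b* and *Cdkn1c*, for which only bounds or no ratios can be given.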

Other observations

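The products of 12 further genes, all measured on the 3 arrays, are known to act on the INK4 locus. Of these, 2 were at least 2-fold higher and 2 lower in LuM1 than in Colon26 cells, where 9.73% and 9.72% of all measured genes were, with a median log2 ratio of 0.09. The counts were 1 and 0 in NM11 over Colon26 (6.28% and 5.47% of all measured genes) and 2 and 1 in LuM1 over NM11 (8.4% and 7.21%). The median log2 ratio was 0.48 in NM11 over Colon26, against -0.02 for all measured genes, and -0.25 against -0.11 in LuM1 over NM11. Scaled to *Hprt*, the median for NM11 over Colon26 turned to -0.0035, against -0.51 for all measured genes. *Id1*, whose product restrains Ets factors at the *Cdkn2a* locus, read 773 in Colon26, 6296 in LuM1 and 4568 in NM11 cells, log2 ratios of 3.03 for LuM1 and 2.56 for NM11 over Colon26. *Ets1* read 1466, 4788 and 2313, with log2 ratios of 1.71 for LuM1 over Colon26 and 1.05 over NM11. *Ets2*, its relative, went the other way and read 3084, 1353 and 4988, with -1.19 for LuM1 over Colon26 and -1.88 over NM11. *Hmga2*, a chromatin protein gene of embryonic and tumour cells, read 18830, 8355 and 13938 (-1.17 for LuM1 over Colon26). Among the Polycomb genes, which hold the locus silent in dividing cells, *Bmi1* had -0.78 for LuM1 over Colon26, and *Cbx7* read 510.2, 634 and 282, with 1.17 for LuM1 over NM11.

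The genes beside the 10 on their chromosomes gave mixed patterns, some like that of the member and some not. Of 62 neighbours listed, 37 had a named probe. Beside *Cdkn2a* and *Cdkn2b*, the nearest protein-coding gene on one side was *Mtap*, a methionine salvage enzyme gene named here after its values were seen, which read 17062 ± 1706 in Colon26, 17737 ± 1774 in LuM1 and 14240 ± 1424 in NM11 cells. *Dmrta1*, on the other side, was well above background in NM11 cells alone, at 49.95. Beside *Rb1*, *Itm2b* read 8702, 22284 and 9442, highest in LuM1 cells like *Rb1* (log2 ratio 1.36 over Colon26), while *Lpar6*, which lies within an intron of *Rb1*, read 3945, 1060 and 2460 and was lowest there (-1.90). Beside *Ccnd3*, *Taf8* had log2 ratios of -0.46 for LuM1 and -0.81 for NM11 over Colon26, close to those of *Ccnd3*. *Bysl*, also beside it, had -1.24 and -0.52, so LuM1 cells were lowest there. *AI661453* read 1338 and 1116 in Colon26 and LuM1 cells but was not well above background in NM11 cells, at least 5.83 (log2) below LuM1. Beside *Cdkn1b*, *Crebl2* read 742, 939 and 352, in the same order as *Cdkn1b*. The non-coding *Lockd* read 5676, 2495 and 1634 and *Gpr19* read 534, 313 and 314, both highest in Colon26 cells, unlike *Cdkn1b*. Beside *Cdkn1c*, *Slc22a18* read 275, 537 and 68.9, a log2 ratio of 2.96 for LuM1 over NM11, with the *Cdkn1c* probe itself not well above background on any array.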
